A study of Mus musculus with 12 samples.

Results

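The genes described here are 10 genes of the insulin-like growth factor (IGF) system as measured in mouse hair follicle stem cells (HFSCs): the ligand gene Igf1, the receptor genes Igf1r and Insr, the binding protein genes Igfbp2, Igfbp3, Igfbp4, Igfbp5, Igfbp6 and Igfbp7, and the adaptor gene Irs2. They were taken by gene symbol from each of the deposited tables, in which they are 10 of 17885 genes in the Eed table and 10 of 21915 genes in the hair cycle table. RNA-seq was carried out on HFSCs sorted from back skin by the presence of EpCAM and CD34, a high level of α6-integrin and the absence of Sca1, with 3 libraries in each of 4 groups. The Eed table compares Eed iKO with control HFSCs at P70 and asks what loss of PRC2, the Polycomb complex that methylates H3K27 and needs EED, does to quiescent HFSCs. The hair cycle table compares wild type HFSCs in anagen, the growth phase, with wild type HFSCs in telogen, the resting phase.

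Eed iKO mice were K15-CrePGR: Eed fl/fl animals, in which Cre is driven by a keratin 15 promoter active in the hair follicle bulge and is switched on by RU-486. RU-486 at 10 mg/ml was applied to the skin for 7 days from P50, while control mice, labelled wildtype C57BL/6J, received the ethanol vehicle alone. Deletion of Eed, the Cre transgene, the floxed alleles, any difference in strain background and exposure to the drug therefore cannot be told apart in these libraries. Anagen mice were P28 to P30 and telogen mice P50 to P52, so that hair cycle stage and age cannot be told apart either. The Eed iKO and control libraries came from separate biological replicates according to the study. For the hair cycle it names animals of each age without saying how they were divided among the libraries.

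IGF1 and IGF2 are secreted growth factors that signal through IGF1R, a receptor tyrosine kinase closely related to the insulin receptor INSR. Activated receptors recruit the docking proteins IRS1 and IRS2, which pass the signal to PI3 kinase, AKT and mTOR. IGF binding proteins capture the ligands outside the cell, and proteases such as PAPP-A release them by cutting IGFBP4 and IGFBP5. In skin, IGF1 is produced mainly by the dermal papilla and dermal fibroblasts and acts on follicle keratinocytes.

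Values are gene counts normalized by the authors, called normalized counts here. In the Eed table they were whole reads scaled by a single factor per library, which was not shown for the hair cycle table. A gene was called higher or lower when its Benjamini-Hochberg adjusted p from limma, taken over all genes tested in its table, was below 0.05, and fold changes are on the log2(normalized count + 1) scale. The libraries of the Eed table held between 33269583 and 57063586 reads, whereas anagen and telogen libraries, whose normalized counts summed to between 11370984 and 13186648, did not resolve into whole reads and have no known depth. All 11 HFSC markers were listed in every group, and their summed normalized counts ran from 1343910 to 1570810 in control, from 1476870 to 1719200 in Eed iKO, from 551673 to 664059 in anagen and from 236658 to 626942 in telogen libraries. By group means, Krt15 and Krt5 made up most of these sums. Eed itself read 1084, 1249 and 950 normalized counts in the control libraries and 933, 1361 and 1001 in those labelled Eed iKO, with a log2 fold change of -0.0055 ± 0.22 (SE) and an adjusted p of 0.993 by limma, so the count over the whole gene did not separate the groups. Which exons were removed is not given in the sources used here, and directions below are those of the labels. Control replicate 3 and Eed iKO replicate 3 stood apart by markers of suprabasal and interfollicular epidermis, which summed to 39750 and 57525 normalized counts against 4474 to 13225 in the other 4 libraries of that table. Krt10 and Krt1 made up most of this sum, with means of 13256 and 5289 in control and 19896 and 4606 in Eed iKO libraries. Ivl, Lor and Ly6a had means of at most 565 in either group.

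Igfbp4 and Igfbp5 are the 2 genes of the set called in the hair cycle comparison, and their promoters are shown for that reason, together with that of Igfbp6, whose anagen values all lay below the telogen values without passing the test. Each sequence runs 5′ to 3′ from 250 bases before to 50 bases after a RefSeq transcription start on GRCm38.p6, and every CG dinucleotide is in capitals. The Igfbp4 promoter lies on chromosome 11 at chr11:99040994-99041293 on the plus strand, that of Igfbp5 on chromosome 1 at chr1:72874816-72875115 on the minus strand, and that of Igfbp6 on chromosome 15 at chr15:102143936-102144235 on the plus strand.
Igfbp4: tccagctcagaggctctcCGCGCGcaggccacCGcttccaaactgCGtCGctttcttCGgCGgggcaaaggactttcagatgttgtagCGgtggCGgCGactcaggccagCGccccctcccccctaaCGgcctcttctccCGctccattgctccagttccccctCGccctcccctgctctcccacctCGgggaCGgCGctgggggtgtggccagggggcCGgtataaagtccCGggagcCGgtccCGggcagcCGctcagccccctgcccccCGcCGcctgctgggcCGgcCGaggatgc
Igfbp5: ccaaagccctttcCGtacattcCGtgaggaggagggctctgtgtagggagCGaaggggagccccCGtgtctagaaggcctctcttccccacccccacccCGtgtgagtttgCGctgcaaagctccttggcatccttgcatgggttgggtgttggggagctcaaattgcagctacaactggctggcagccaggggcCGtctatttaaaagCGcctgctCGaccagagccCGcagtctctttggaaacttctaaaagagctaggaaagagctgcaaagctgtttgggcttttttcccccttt
Igfbp6: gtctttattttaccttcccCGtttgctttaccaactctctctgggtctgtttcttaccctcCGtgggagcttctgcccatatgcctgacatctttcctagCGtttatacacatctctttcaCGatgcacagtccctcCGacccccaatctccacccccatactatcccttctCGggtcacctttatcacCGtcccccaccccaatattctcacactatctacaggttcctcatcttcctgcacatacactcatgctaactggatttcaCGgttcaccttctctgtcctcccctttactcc
The Igfbp4 window held 27 CG dinucleotides, which 15.5% of the 32851 promoters of the RefSeq table reach. The Igfbp5 window held 10 and the Igfbp6 window 8, which 43.5% and 48.6% of promoters reach, and the median promoter held 7. The letters TATAAA, searched on both strands, stand 28 bases before the start in Igfbp4 and on the opposite strand in Igfbp6, and are absent from the Igfbp5 window, while 13.6% of all promoters hold them. RefSeq promoters were found for 9 of the 10 genes and not for Insr. Among these windows the CG count was highest for Igf1r, with 48, followed by Irs2 with 41, Igfbp3 with 37 and Igfbp7 with 33. The neighbouring genes Igfbp2 and Igfbp5 point towards each other on chromosome 1 with 5457 bases between their ends, and Igfbp1 and Igfbp3 do so on chromosome 11 with 3539 bases between them, by GENCODE vM21 on GRCm38. By the same annotation the windows of Igfbp6, Igf1r and Irs2 end before their genes begin, at positions 102144362, 67952827 and 11008458. It was therefore not shown that these 3 windows hold the starts of the measured transcripts. No test bears on any of the windows.

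**Figure D1:**
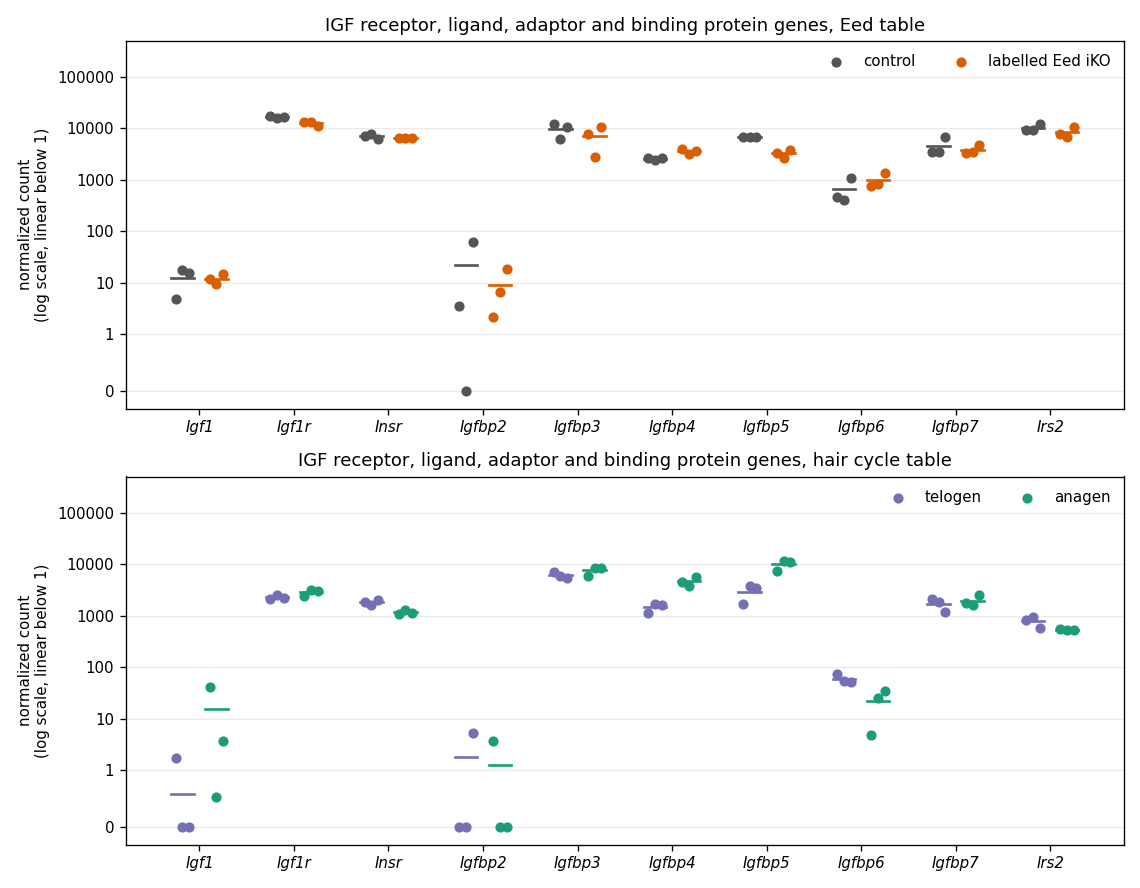
Normalized counts (vertical axis, log scale, linear below 1) of the 10 genes in each library of the Eed table (top) and the hair cycle table (bottom). Points are libraries and bars are group means; in the bottom panel all 3 anagen points of Igfbp4 and Igfbp5 lie above the 3 telogen points, and in the top panel all 3 Eed iKO points of Igfbp5 lie below the 3 control points.

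The HFSC libraries held abundant transcripts of the receptors and of most of the binding proteins, and close to no Igf1 transcript. Levels of different genes were compared per kilobase of the longest protein-coding transcript. In telogen HFSCs the order was Igfbp3 with 2489 ± 336 normalized counts per kilobase (SD, n = 3), Igfbp7 with 1411 ± 388, Igfbp5 with 483 ± 181, Igfbp4 with 387 ± 77.9, Igf1r with 199.8 ± 19.2, Insr with 193.7 ± 24.3, Irs2 with 121 ± 29.3, Igfbp6 with 53.4 ± 9.79, Igfbp2 with 1.36 and Igf1 with 0.0816. Igfbp5 and Igfbp4 overlapped in range in telogen, as did Igf1r and Insr and also Igfbp2 and Igf1, whereas every other pair of neighbours was separated. In anagen HFSCs Igfbp3 was again first, with 3133 ± 597, and was separated from Igfbp5 with 1648 ± 361, which overlapped Igfbp7 with 1628 ± 423, and Igfbp7 in turn overlapped Igfbp4 with 1202 ± 246. Igf1r with 246.9 ± 29.1, Insr with 124 ± 11.0, Irs2 with 84.5 ± 3.83 and Igfbp6 with 19.3 ± 13.7 followed, each separated from the gene before it, and Igf1 with 2.18, which reached into the range of Igfbp6, and Igfbp2 with 0.954 came last. In control HFSCs at P70 Igfbp3 with 3981 ± 1323 and Igfbp7 with 3753 ± 1585 overlapped at the top, Irs2 with 1601 ± 276 and Igf1r with 1447 ± 65.6 overlapped next, and Igfbp5 with 1110.1 ± 11.0 stood alone ahead of Insr, Igfbp4 and Igfbp6, of which each overlapped the next, between 362 and 987. In the Eed iKO libraries Igfbp7 and Igfbp3 led with 3174 ± 599 and 2864 ± 1635, each gene from first to sixth overlapped the next, and Igfbp5 was eighth with 539 ± 95.6. The order depends on the length used: with coding length in place of transcript length 3, 1, 4 and 7 of the 10 genes kept their rank in control, Eed iKO, anagen and telogen libraries, and Igfbp5 became first in anagen with 12173 ± 2667 normalized counts per coding kilobase.

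Igf1, the ligand, was near the limit of detection. In control libraries it read 4.86, 17.3 and 15.4 normalized counts and in Eed iKO libraries 11.8, 9.30 and 14.8. The groups overlapped, with a log2 fold change of 0.082 ± 0.88 (SE) by limma that was -0.058 with DESeq2 and -0.043 with edgeR. In the hair cycle table it read 41.8, 0.529 and 3.69 in anagen and 1.73, 0 and 0 in telogen, did not pass the filter on low values and was not tested. Most of the anagen signal stood in replicate 1. Igf1 is a gene of dermal cells in skin, and the 10 fibroblast and dermal papilla markers summed to 1277, 1372 and 997 normalized counts over the 3 anagen libraries, in replicate order, and to 416, 1103 and 789 over the telogen libraries. In the Eed table the same sum ran from 2172 to 3608 in control and from 1724 to 2227 in Eed iKO libraries. By group means, Col1a2, Hhip and Col1a1 made up most of these sums. Hhip had a mean of 670 in anagen, and Col1a2 had means of 1944 in control and 1363 in Eed iKO. Dcn, Col3a1 and Lum had means of at most 27.1 in any group. The part of such cells in the Igf1 values was not tested, and fewer cells of a type and less RNA per cell cannot be told apart in these bulk libraries.

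Igf1r, the receptor for IGF1 and IGF2, was lower by 1.33-fold on average in the Eed iKO libraries without passing the test. Control libraries held 17073, 15656 and 16782 normalized counts of Igf1r, against 13003, 13062 and 11244 in the Eed iKO libraries. The groups did not overlap, and the log2 fold change was -0.41 ± 0.13 (SE), with an adjusted p of 0.177 by limma. Over the hair cycle Igf1r read 2443, 3077 and 2932 in anagen and 2084, 2517 and 2237 in telogen, and the groups overlapped, with a log2 fold change of 0.30 ± 0.18 and an adjusted p of 0.314.

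Insr, the insulin receptor, was lower in anagen without passing the test. Insr read 1080, 1274 and 1115 normalized counts in anagen and 1820, 1581 and 2036 in telogen. Every telogen library lay above every anagen library, and the log2 fold change of -0.64 ± 0.19 (SE), a 1.56-fold difference, had an adjusted p of 0.0549 by limma and was not called. Leaving out single libraries moved that adjusted p between 0.0461 and 0.206, and it fell below the threshold only without telogen replicate 2. Control libraries of the Eed table read 6939, 7598 and 6188 for Insr and Eed iKO libraries 6416, 6331 and 6478, and the overlapping groups differed by -0.10 ± 0.13 on the log2 scale with a 95% interval from -0.40 to 0.19.

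Igf1r and Insr were set against each other within a library, which removes any scaling shared by all its genes. The level of Igf1r per kilobase was 1.86, 1.98 and 2.16 times that of Insr in anagen and 0.939, 1.31 and 0.901 times in telogen. The anagen and telogen ratios did not overlap. The ratio was 2.02, 1.69 and 2.22 in control and 1.66, 1.69 and 1.42 in Eed iKO libraries, where the lowest control ratio and the highest Eed iKO ratio were both 1.69. The ratio was chosen after the values were seen and is given with no test.

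Irs2, the docking protein downstream of both receptors, read 561, 528 and 513 normalized counts in anagen and 813, 927 and 565 in telogen. The groups did not overlap, though telogen replicate 3 lay close to the anagen libraries, and the log2 fold change of -0.49 ± 0.24 (SE) had an adjusted p of 0.217. At P70 Irs2 read 9193, 9043 and 12136 in control and 7592, 6641 and 10634 in Eed iKO libraries, which overlapped, with a log2 fold change of -0.30 ± 0.19 and an adjusted p of 0.488. The highest value of each group was in the replicate 3 library with the high epidermal marker sum. Of the exon bases of Irs2, 2.56% overlap 9530052E02Rik on the opposite strand, and the library kit is not stated to keep strand.

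Igfbp5 and Igfbp4 rose in anagen. IGFBP5 is a binding protein that also attaches to extracellular matrix, and IGFBP4 is known mainly as an inhibitor of IGF action. Igfbp5 read 7394, 11206 and 11089 normalized counts in anagen and 1656, 3666 and 3386 in telogen libraries. All anagen values stood above all telogen values, and the level was 3.55-fold higher in anagen, a log2 fold change of 1.83 ± 0.30 (SE) with an adjusted p of 0.00308 by limma. Igfbp4 read 4550, 3688 and 5575 in anagen and 1142, 1694 and 1617 in telogen libraries. These did not overlap either, and Igfbp4 was 3.10-fold higher in anagen, a log2 fold change of 1.63 ± 0.22 with an adjusted p of 0.00115. Both genes were called in 11 of 11 alternative fits, in which the log2 fold change ranged from 1.46 to 2.04 for Igfbp5 and from 1.46 to 1.78 for Igfbp4, and the highest adjusted p was 0.0447, for Igfbp5 without an intensity trend. Telogen replicate 1, which had the lowest HFSC marker sum, was also the lowest telogen library for both genes, and without it the log2 fold changes were 1.46 and 1.46. That sum is mostly keratin, with telogen means of 303205 for Krt15 and 112761 for Krt5, against 11989 or less for each other HFSC marker.

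Of the 8 genes of the set tested in the hair cycle table, 2 were called, both higher in anagen, and 0 were called higher in telogen, where limma called 11.6% of all 13457 genes tested, with 7.22% called higher in anagen and 4.35% called lower. At an unadjusted p below 0.05 the count was 4 of 8, against 27.3% of all genes. No overlap between the groups was seen for 5 of the 8, namely Igfbp4, Igfbp5, Igfbp6, Insr and Irs2, against 33.3% of all genes. None passed the thresholds given in the methods of the study, a log2 fold change beyond 2 with an unadjusted p below 0.05, which 5.1% of all genes passed. Igfbp5 passed them without anagen replicate 1 or telogen replicate 2, at 2.02 and 2.04, and Igfbp6 without anagen replicate 2 or 3, at -2.06 and -2.29. The median log2 fold change of the 8 was 0.26, and that of all genes tested was 0.013.

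Markers of cycling cells, and some of those of melanocytes and fibroblasts, moved with these calls. All 7 proliferation markers were called higher in anagen, and their sum ran from 20928 to 33437 normalized counts in anagen against 2085 to 3480 in telogen. Among the 10 fibroblast and dermal papilla markers, 5 were tested and 2 were called higher in anagen, Col1a1 with a log2 fold change of 2.06 ± 0.41 (SE) and Dcn with 4.05 ± 0.83. The other 3 tested were not called, with log2 fold changes of -0.997 ± 0.37 for Col1a2, -1.02 ± 1.09 for Pdgfra and 1.43 ± 0.52 for Hhip. Dcn ranged from 15.7 to 38.5 normalized counts in anagen and from 0 to 1.47 in telogen, and Sox18 was at 0 in every library of both groups. The 5 melanocyte markers summed to 437 to 803 in anagen and 81.3 to 160 in telogen, with 1 of the 4 tested, Dct, called higher. Cd34, a surface marker of the sort itself, was lower in anagen, with a log2 fold change of -1.21 ± 0.20. Another marker of the sort, Itga6, was called higher, the other 9 of the 11 HFSC markers were not called, and of 5 hair germ and matrix markers 1, Msx2, was called lower. None of the tested markers of suprabasal and interfollicular epidermis (5 tested, summed from 4144 to 12640 in anagen and from 7621 to 15220 in telogen), of endothelium (2 tested) or of immune cells (5 tested) was called, and no smooth muscle and pericyte marker passed the filter on low values. The part of these cell types in the Igfbp4 and Igfbp5 differences was not tested.

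**Figure D2:**
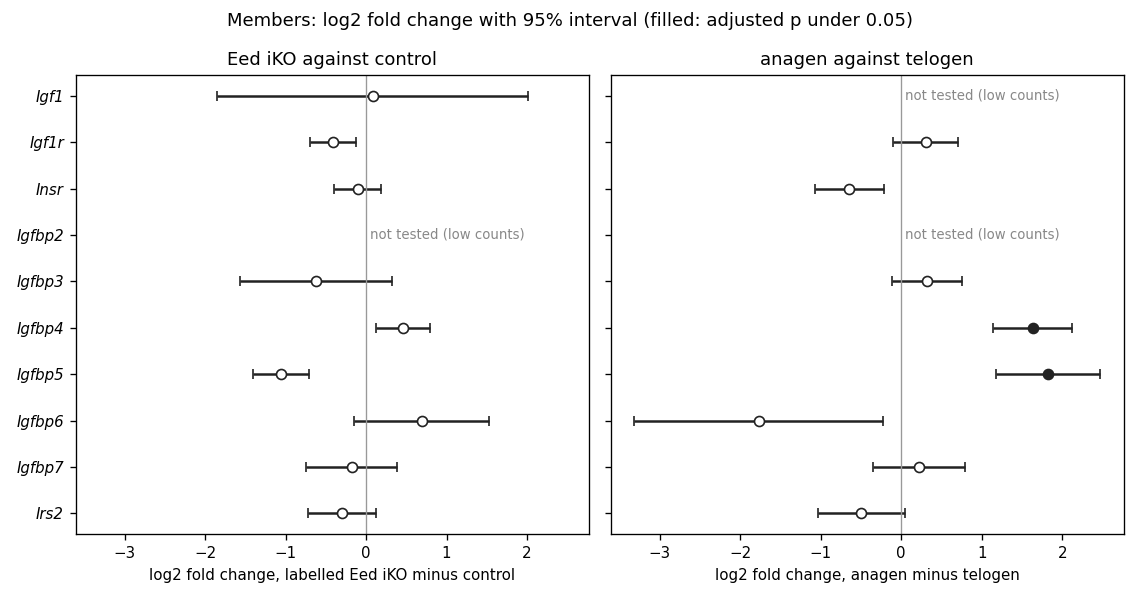
Log2 fold changes (horizontal axis) of the 10 genes in the Eed iKO against control and anagen against telogen comparisons, with 95% intervals from limma; filled points have an adjusted p below 0.05 and genes with low counts were not tested. Igfbp4 and Igfbp5 are filled in the hair cycle panel at 1.63 and 1.83, and in the Eed panel no point is filled while Igfbp5 lies at -1.06 and Igfbp4 at 0.46.

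Between Eed iKO and control libraries Igfbp5 had the largest difference of the set, with a lower level in Eed iKO, and did not pass the adjusted threshold. Normalized counts of Igfbp5 were 6605, 6661 and 6737 in control and 3233, 2667 and 3815 in Eed iKO libraries. The control libraries were close to each other, with an SD of 66.3, and all stood above every Eed iKO library. Igfbp5 was thus 2.08-fold lower, at -1.06 ± 0.16 (SE) on the log2 scale with a 95% interval from -1.40 to -0.71, an unadjusted p of 3.59e-05 that ranked 7 among 15008 genes, and an adjusted p of 0.0689 by limma. On the whole reads recovered from this table, edgeR gave an adjusted p of 0.0686 and DESeq2, the tool of the study, an adjusted p of 5.04e-06, while limma without an intensity trend gave 0.294. Leaving out single libraries gave log2 fold changes from -1.18 to -0.92 and adjusted p-values from 0.0115 to 0.400, and only the omission of Eed iKO replicate 3 led to a call. Without both libraries that were high in epidermal markers, an alternative chosen after seeing the data, the log2 fold change was -1.18 with an adjusted p of 0.0176.

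Igfbp4 lay the other way. Control libraries held 2659, 2408 and 2600 normalized counts and Eed iKO libraries 3998, 3085 and 3530. The groups did not overlap, and Igfbp4 was 1.38-fold higher by its mean difference of 0.46 ± 0.15 (SE) on the log2 scale, with an adjusted p of 0.200 by limma, which was not called. Within each library the per-kilobase level of Igfbp5 was 1.58, 1.76 and 1.65 times that of Igfbp4 in control and 0.516, 0.551 and 0.689 times in Eed iKO libraries. These ratios did not overlap, do not depend on the scaling of the libraries and were chosen after the values were seen. The same ratio was 1.04, 1.94 and 1.27 in anagen and 0.925, 1.38 and 1.34 in telogen, and the groups overlapped.

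Of the 9 genes of the set tested in the Eed table, 0 were called by limma, which called 0.0267% of all 15008 genes tested. At an unadjusted p below 0.05 there were 3, Igfbp5, Igf1r and Igfbp4, against 14.7% of all genes, and the same 3 were those whose groups did not overlap, against 20.2% of all genes. edgeR called 0 of the 9 and 0.0333% of all genes, and DESeq2 called 1, Igfbp5, and 4.48% of all genes. The proliferation markers summed to 15333, 16032 and 7079 in Eed iKO libraries and to 6234 to 7672 in control libraries. None of the tested markers of any cell type was called, by a test that called 0.0267% of all genes. Cd207, Tyrp1 and Cdk1 were higher in Eed iKO without overlap, at log2 fold changes of 4.24 ± 1.07, 3.38 ± 1.14 and 1.80 ± 0.64 (SE). Cd207 and Tyrp1 had low counts, with Eed iKO means of 18.4 and 19.7. Col1a1 was lower without overlap, at -1.48 ± 0.52. Among the HFSC markers Krt14, Itga6, Lhx2 and Krt15 were higher without overlap, at 0.82, 0.41, 0.28 and 0.23. Tcf7l1, Nfatc1 and Lgr5 were lower without overlap, at -0.47, -0.39 and -0.24. Mcm2 and Cdh3 were also higher without overlap, at 0.70 and 0.56, and Tie1 was lower, at -0.78. Every other tested marker overlapped, among them Dct at -0.21, H2-Aa at -0.25 and Dcn at 0.34. The part of cell types in these differences was not tested. None of the 9 genes passed the thresholds given in the methods of the study, here a log2 fold change beyond 1.5 with an unadjusted p below 0.05, which 1.75% of all genes passed. By a second rule that the study states, a fold of at least 1.5 with an adjusted p below 0.05, 1 gene of the set, Igfbp5, passed with DESeq2, against 3.88% of all genes, and 0 passed with limma or edgeR. The median log2 fold change of the 9 was -0.18, and that of all genes tested was -0.0011.

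Igfbp3, the main carrier of IGFs in blood, did not separate the groups of either table. Its control libraries read 12158, 6033 and 10723 normalized counts and its Eed iKO libraries 7560, 2699 and 10542. The values overlapped and spread widely in both groups, with replicate 2 lowest in each, and the log2 fold change of -0.62 ± 0.43 (SE) had a 95% interval from -1.57 to 0.32. It was -0.048 without Eed iKO replicate 2 and -1.03 without Eed iKO replicate 3, the ends of its range over single libraries left out. Over the hair cycle Igfbp3 read 5922, 8294 and 8538 in anagen and 6943, 5735 and 5397 in telogen, overlapped, and differed by 0.32 ± 0.20 on the log2 scale with an adjusted p of 0.325. Igfbp1, its neighbour on chromosome 11 and no member of the set, stayed at or below 12.9 normalized counts in the Eed table and 19.0 in the hair cycle table.

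Igfbp6, which prefers IGF2 over IGF1, had the lowest level per kilobase of the tested binding protein genes in anagen and telogen HFSCs. It read 4.76, 24.9 and 34.7 normalized counts in anagen and 71.9, 54.5 and 51.8 in telogen libraries. Every telogen value was above every anagen value, but anagen replicate 1 was far below the other two, and the log2 fold change of -1.77 ± 0.70 (SE) had an adjusted p of 0.131 and was -0.97 without that library. At P70 Igfbp6 read 452, 403 and 1097 in control libraries and 761, 814 and 1356 in Eed iKO libraries, and the groups overlapped, with a log2 fold change of 0.69 ± 0.38 and an adjusted p of 0.424. Both high values were in the replicate 3 libraries with the high epidermal marker sums, and without this pair the log2 fold change was 0.88 with an adjusted p of 0.156. The part of epidermal cells in the values of Igfbp6, and likewise of Irs2 and Igfbp7, was not tested.

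Igfbp7, a related protein that binds IGFs only weakly, read 3440, 3372 and 6700 normalized counts in the control libraries and 3341, 3449 and 4636 in those labelled Eed iKO. The highest value of each group was again in replicate 3, the groups overlapped, and the log2 fold change of -0.18 ± 0.25 (SE) became 0.15 without control replicate 3. Over the hair cycle it read 1753, 1577 and 2530 in anagen and 2074, 1832 and 1173 in telogen, overlapped, and differed by 0.22 ± 0.26 on the log2 scale, which became -0.028 without telogen replicate 3. Of its exon bases, 7.03% overlap Polr2b on the opposite strand.

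Igfbp2, next to Igfbp5 on chromosome 1, was low in every library. It read 3.47, 0 and 62.6 normalized counts in control libraries, 2.15, 6.64 and 18.8 in Eed iKO, 3.74, 0 and 0 in anagen and 0, 0 and 5.32 in telogen libraries. It did not pass the filter on low values in either table and was not tested. The value of control replicate 3 was far above the others of its group.

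Igfbp4 and Igfbp5 held larger shares of the binding protein transcripts in anagen than in telogen. Per kilobase, Igfbp5 made up 21.5% ± 2.70 (SD, n = 3) of the summed transcripts of the 6 Igfbp genes in anagen and 10.3% ± 4.35 in telogen, and Igfbp4 made up 15.9% ± 3.05 and 8.16% ± 2.21. For both genes the lowest anagen share was above the highest telogen share. The share of Igfbp3 was 41.0% ± 3.57 in anagen and 51.6% ± 3.78 in telogen, without overlap, and that of Igfbp7 was 21.3% ± 3.46 and 28.9% ± 5.20, with overlap. Igfbp6 shares, from 0.0676% to 0.348% in anagen, lay below those in telogen, from 0.981% to 1.23%. In control libraries Igfbp5 held 11.5% ± 3.17 and Igfbp4 6.88% (from 5.28% to 8.49%), and in Eed iKO libraries 6.60% ± 0.830 and 11.5% ± 2.77. The Eed iKO shares of Igfbp5, from 5.77% to 7.43%, lay below the control shares, from 8.73% to 15.0%, and the Igfbp4 shares overlapped. Those of Igfbp6 did not overlap either, from 8.37% to 12.3% in Eed iKO and from 4.03% to 7.68% in control. Shares depend on the length used and carry no test: with coding length the share of Igfbp5 was 41.8% in anagen, 24.8% in telogen, 29.7% in control and 18.6% in Eed iKO.

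**Figure D3:**
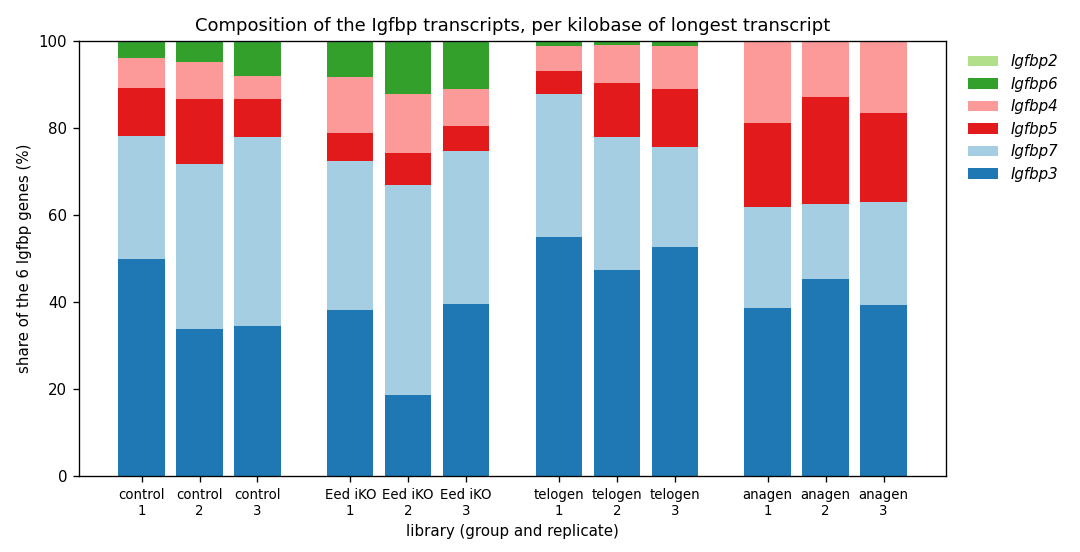
Share of each Igfbp gene (vertical axis, % of the summed normalized counts per kilobase of longest transcript of the 6 genes) in each of the 12 libraries. Igfbp5 and Igfbp4 together take a larger part of the bar in the anagen libraries than in the telogen libraries, with mean shares of 21.5% and 15.9% against 10.3% and 8.16%.

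Among 47 other genes of the insulin and IGF pathway, 39 were tested in the hair cycle table and 8 were called, 4 in each direction. Limma called 11.6% of all genes in that table. Of the 4 tested genes for proteases of the binding proteins or their inhibitors, Pappa and Stc1 were called, and Htra1 and Pappa2 were not, with log2 fold changes of -1.05 ± 0.43 and 0.17 ± 0.66 (SE). Pappa, which encodes the protease that cuts IGFBP4 and IGFBP5, read 3309, 3316 and 2821 normalized counts in anagen and 324, 400.0 and 493 in telogen libraries. It was 7.84-fold higher in anagen, a log2 fold change of 2.97 ± 0.22 (SE) with an adjusted p of 2.83e-05 by limma, and was called in 11 of 11 alternatives. Stc1, which encodes stanniocalcin 1, an inhibitor of that protease, read 123, 58.1 and 51.0 in anagen and 9.71, 0 and 11.4 in telogen libraries. Its log2 fold change of 3.83 ± 0.94, with an adjusted p of 0.0253, rests on low counts with 1 telogen library at 0 and was called in 6 of 11 alternatives. Leaving out single libraries moved the Stc1 log2 fold change from 2.65 to 4.47 with adjusted p-values up to 0.126, and the call was lost without any 1 of the anagen libraries.

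Downstream of the receptors, Pik3r3, a regulatory subunit of PI3 kinase, rose in anagen with a log2 fold change of 2.84 ± 0.47 (SE), from 77.6 to 504 mean normalized counts. Pik3r1, the major regulatory subunit of the same enzyme, was lower in anagen, with a log2 fold change of -1.04 ± 0.21, at 4428 against 8924 mean normalized counts. Foxo1, a transcription factor that AKT keeps out of the nucleus, rose with a log2 fold change of 1.06 ± 0.20, from 1285 to 2677. Irs1, the sister docking protein of Irs2, was lower in anagen with a log2 fold change of -1.01 ± 0.25 and read 317, 385 and 271 in anagen against 585, 708 and 655 in telogen libraries. Tsc1, a subunit of the complex that restrains mTOR, was lower in anagen with a log2 fold change of -1.17 ± 0.34 and an adjusted p of 0.0453 by limma. Pik3r3 was called in 11 of 11 alternatives, Foxo1 in 10, Pik3r1 in 9, Irs1 in 5 and Tsc1 in 3. Over single libraries left out, the adjusted p of Pik3r1 passed 0.05 only without anagen replicate 1, at 0.0570, Irs1 was called only without telogen replicate 1, with values up to 0.0959, and Tsc1 only without telogen replicate 2, with values up to 0.155. The smallest differences of the list were those of Pdpk1, the kinase that activates AKT, at 0.0086 ± 0.22, and of Igf2r, the clearance receptor for IGF2, at -0.011 ± 0.37. Pappa, Stc1 and Pik3r3 passed the thresholds given in the methods of the study. The median log2 fold change of the 39 genes was -0.067.

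**Figure D4:**
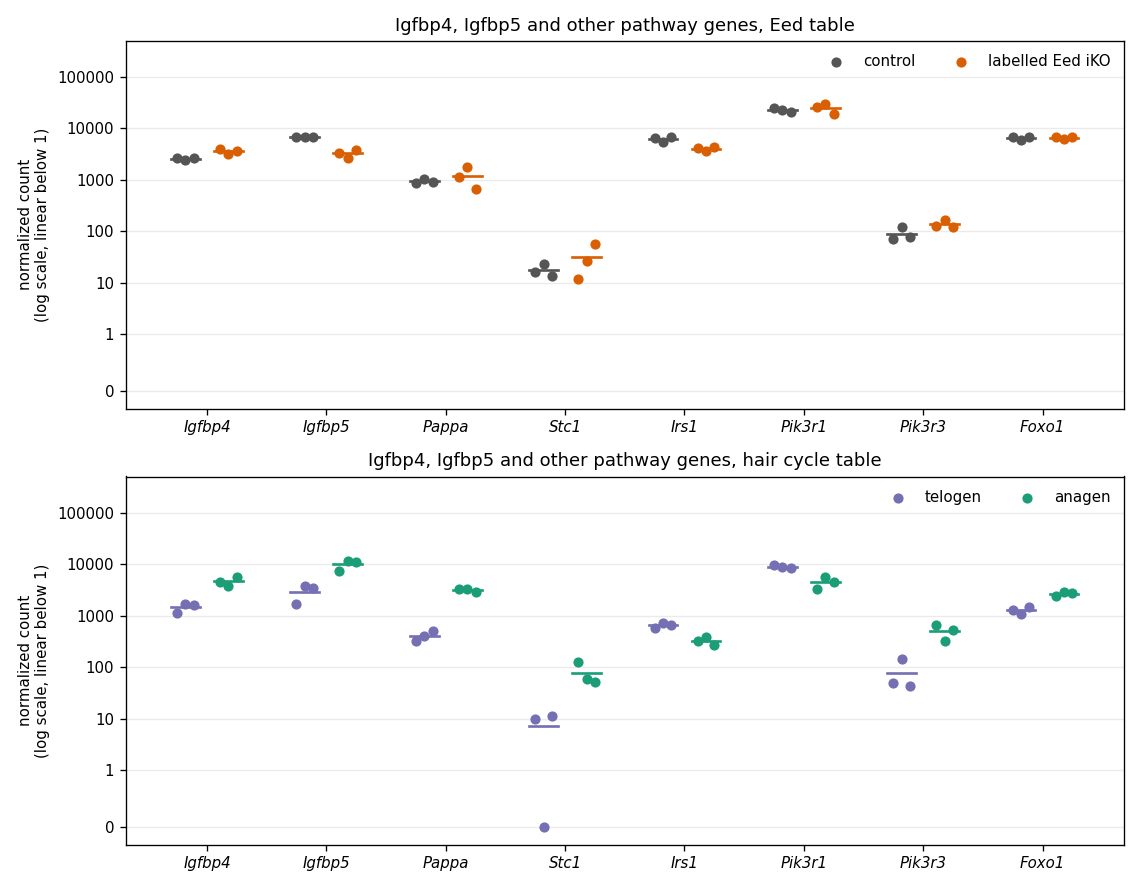
Normalized counts (vertical axis, log scale, linear below 1) of Igfbp4, Igfbp5 and 6 other pathway genes in each library of the Eed table (top) and the hair cycle table (bottom); points are libraries and bars are group means. In the bottom panel the 3 anagen points of Pappa lie between 2821 and 3316 and the 3 telogen points between 324 and 493, while Irs1 and Pik3r1 are lower in every anagen library than in any telogen library.

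Between Eed iKO and control libraries 41 of the other pathway genes were tested and 0 were called by limma, while 8 had an unadjusted p below 0.05, against 14.7% of all genes. edgeR called 0 of them and DESeq2 called 2, Irs1 and Igf2, against 4.48% of all genes. Irs1 read 6513, 5364 and 6738 normalized counts in control and 4061, 3539 and 4246 in Eed iKO libraries. The groups did not overlap, with a log2 fold change of -0.65 ± 0.15 (SE) and adjusted p-values of 0.107 by limma and 0.00713 by DESeq2. Of the Irs1 exon bases, 30.9% overlap Gm9747 on the opposite strand. Igf2, the second ligand, read 4.86, 32.5 and 27.2 in control and 178, 163 and 39.5 in Eed iKO libraries, with a log2 fold change of 2.59 ± 0.86 and an adjusted p of 0.205 by limma and 0.0396 by DESeq2. It was the 1 gene of the list past the thresholds given in the methods of the study, and did not pass them without Eed iKO replicate 1 or 2. Its counts are low, Eed iKO replicate 3 stood close to the control libraries, and 62.8% of its exon bases are shared with Gm49394 on the same strand. The other large difference of the list was that of Stc2, a second stanniocalcin, at -0.84 ± 1.63, and the smallest were those of Foxo1 and Tsc1, at 0.0089 ± 0.13 and 0.012 ± 0.17. The log2 fold change of Pappa was 0.25 ± 0.32. The median log2 fold change of the 41 genes was 0.0089.

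**Figure D5:**
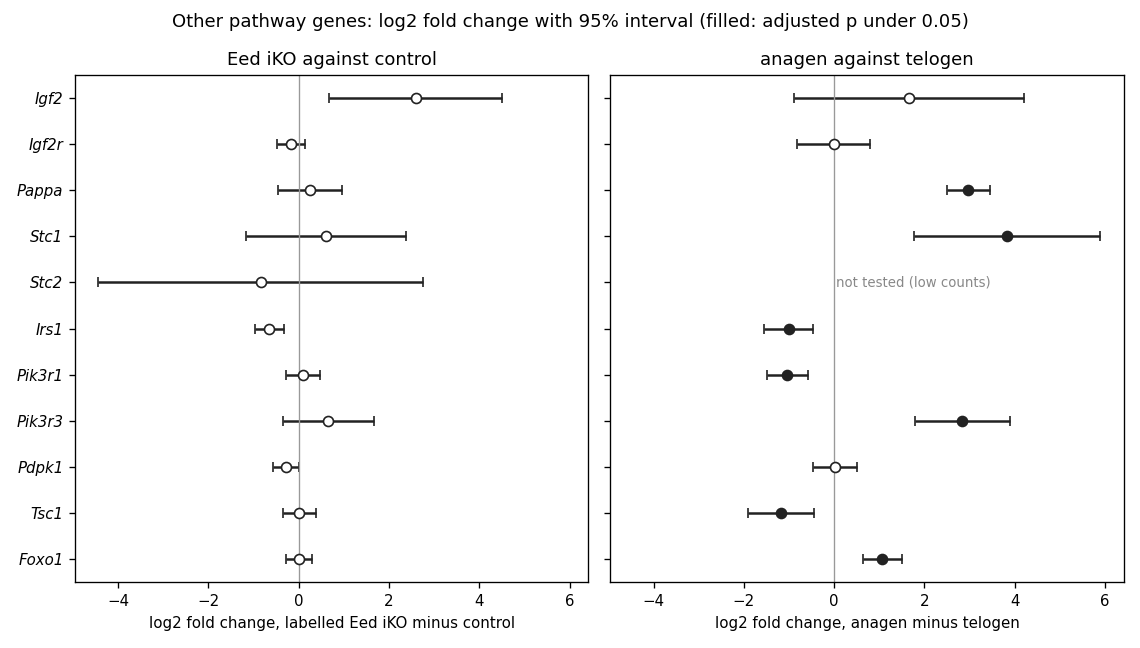
Log2 fold changes (horizontal axis) of 11 pathway genes outside the set in both comparisons, with 95% intervals from limma; filled points have an adjusted p below 0.05. In the hair cycle panel 7 points are filled, led by Stc1 at 3.83 and Pappa at 2.97, and in the Eed panel none is filled, with Igf2 at 2.59 and Irs1 at -0.65.

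Igfbp5 had the largest absolute log2 fold change of the tested genes of the set in both tables with all libraries and a pseudocount of 1, ahead of Igfbp6. Igfbp6 was ahead without control replicate 3 in the Eed table, and in the hair cycle table with a pseudocount of 0.1 and without anagen replicate 2, anagen replicate 3 or telogen replicate 1. The genes whose log2 levels were most like those of Igfbp5 over the 6 hair cycle libraries were Lgr6, Neo1 and Zfp267, with Pearson correlations of 0.996, 0.994 and 0.994. Over the 6 libraries of the Eed table they were Hoxa3, Srf and Pot1b, with correlations of 0.991, 0.991 and 0.990. These correlations share the difference between the groups and the scaling of the libraries, and are a description over 6 points each.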

How the data were processed

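RNA-seq of sorted HFSCs was analysed from 2 tables, 1 of the Eed iKO and control libraries and 1 of the anagen and telogen libraries, with 3 libraries per group. Per the labels and methods, the authors prepared libraries with the NuGEN Ovation V2 kit, quantified reads with kallisto 0.42.5 against GENCODE transcripts of mm10, and normalized with DESeq2, which the submitters' processing notes list as version 3.11. The deposited values are a signal, normalized gene counts, and each table was normalized on its own. Of the values above 0 in the Eed table, 100% were whole multiples of a single step per library, with a tolerance of 0.01 reads, and were turned back into reads. For anagen and telogen libraries 5.19% to 13.1% were, so division of whole reads by a single size factor was not shown for them. Their depth stays unknown.

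Each table was fitted alone with limma 3.58.1 in R 4.3.3 (intensity trend) on log2(normalized count + 1), for genes passing filterByExpr of edgeR 4.0.16 with a count minimum of 10, and p-values were adjusted by Benjamini-Hochberg over all genes tested. limma was chosen for both tables in place of the DESeq2 test of the study because the deposited values are not counts. Reads were recovered for the Eed table alone, where edgeR quasi-likelihood and DESeq2 1.42.0 on these reads were alternatives. Further alternatives were a pseudocount of 0.1, no filter, TMM scaling, no trend, a replicate block, each library left out, and coding length for levels. The fit was tested on simulated data with planted differences larger than that of any tested gene of the set with all libraries. That test does not show how often smaller differences would be called. Lengths and positions came from GENCODE vM21, promoters from RefSeq on GRCm38.p6. Replicates were few, and p-values set each difference against the spread between these libraries, which limma moderates by that of all genes tested.

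The genes, the pathway list and the marker lists were chosen with earlier results of these data known. All 10 genes are named. A pathway gene is named if called or past the thresholds of the study in either comparison, or if its absolute log2 fold change was among the 2 largest or 2 smallest of the list, and 1 of the 8 genes called in the hair cycle table is counted but not reported here. The 3 nearest genes by correlation are named for the gene with the largest fold change in each table. Endothelial, smooth muscle, immune and hair germ markers were also summed.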

Additional observations from a re-analysis of the deposited data

How the results depend on the processing

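Most log2 fold changes of the 10 genes kept their direction and their side of the threshold: 117 of 126 values over all alternatives in the Eed table and 86 of 88 in the hair cycle table. The direction turned for Igf1 in the Eed table, to -0.043 with edgeR and -0.058 with DESeq2, with values between -0.44 and 0.38 when single libraries were left out. It also turned for Igfbp7 without control replicate 3 or telogen replicate 3, with a range from -0.35 to 0.15 in the Eed table and from -0.028 to 0.38 in the hair cycle table when single libraries were left out. The cause was not tested. In the Eed table the number of the 10 genes called went from 0 to 1, Igfbp5 in each case, with DESeq2, with the replicate block and without both libraries high in epidermal markers, and ranged from 0 to 1 over libraries left out. Pathway genes called went from 0 to 1 with the thresholds of the study, to 1, Irs1 with an adjusted p of 0.0203, with the replicate block and to 2 with DESeq2. Requiring a fold of at least 1.5 of the DESeq2 calls, a setting chosen after seeing the data, left 1 and 2. In the hair cycle table the thresholds of the study gave 0 of the 10 genes and 3 pathway genes in place of 2 and 8, a pseudocount of 0.1 gave 5 pathway genes, fitting without an intensity trend gave 2, and leaving out single libraries gave from 4, without any 1 anagen library, to 10, without telogen replicate 1. Over all genes limma called 4 in the Eed table, against 673 with DESeq2, 2 without an intensity trend, 203 without Eed iKO replicate 3 and 1 without any other library, and 1556 in the hair cycle table, against 842 without an intensity trend and 597 to 1529 over libraries left out. With coding length 3, 1, 4 and 7 genes kept their rank in control, Eed iKO, anagen and telogen libraries.

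Libraries with the same replicate number did not all deviate together. The correlations of their deviations were 0.039, 0.068 and 0.19 in the Eed table and -0.035, -0.071 and -0.029 in the hair cycle table, above 0.1 only for replicate 3 of the Eed table, so the replicate block is an alternative without a pairing behind it. With the replicate block Igfbp5 in the Eed table kept a log2 fold change of -1.06 with an adjusted p of 0.00251, and 424 genes were called in place of 4 by limma. In the hair cycle table the replicate block left Igfbp4 and Igfbp5 called and the count of pathway genes at 8.

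Igf1 and Igfbp2 were too low for a fold change to be resolved, and the depth behind the hair cycle values is unknown.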
